A study of Mus musculus with 21 samples.

Results

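The genes described here encode Polycomb repressive complex 2 (PRC2): the catalytic subunits Ezh2 and Ezh1, the core subunits Eed and Suz12, the histone-binding subunits Rbbp4 and Rbbp7, and the accessory subunits Jarid2 and Mtf2. They were taken by symbol, and all 8 were found among the 31053 mouse Ensembl gene IDs counted in each library. All 8 also passed the filter on low counts that left 10643 genes for testing.

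PRC2 places methyl groups on a lysine of histone H3 (the H3K27 mark), and in embryonic stem cells it is known for keeping genes of later development silent. Ezh2 or Ezh1 carries the methyltransferase domain, Suz12 holds the complex together, and Eed binds the methylated histone and stimulates the enzyme. Accessory subunits such as Jarid2 and Mtf2 are known to form alternative versions of the complex and to help bring it to CpG-rich promoters.

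The data were mRNA sequencing counts of E14Tg2a, male mouse embryonic stem cells from a 129 strain with a GFPd2 reporter knocked in at 1 Rex1 (Zfp42) allele. The 21 libraries formed 7 groups of 3 replicates, named by the labels as 2i+LIF PO, 2i+LIF LP, CH+LIF LP, LIF LP, 2i+LIF HP, CH+LIF HP and LIF HP. LIF is a cytokine that acts through STAT3, CH is CHIR99021, an inhibitor of GSK3 that activates the Wnt pathway, and 2i usually means CHIR99021 with the MEK inhibitor PD0325901. All libraries came from this 1 cell line and share 1 growth protocol, in which cells spent a first week with both inhibitors and then had CH, PD and LIF given and withdrawn in turn over successive passages. The series text names zero passage, 1 month and 2 months of culture, but the labels do not tie PO, LP or HP to these, so the letters are used as given. Nothing in the labels says that replicates came from separate cultures, so p-values measure the spread between these libraries, which may be technical.

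Gene counts per library ranged from 1132126 to 3783043, with a median of 1763531, and no replicate pair agreed within sampling noise (lowest chi-square per degree of freedom, 4.82). A pair of libraries stood apart: 2i+LIF LP replicate 1, with 31.7% of gene counts from Gm42418 and a mean correlation of 0.787 with its replicates, and 2i+LIF PO replicate 1, with 39.1% mitochondrial counts and a correlation of 0.83. The other 19 libraries had mean correlations of 0.857 to 0.944. File names place the PO libraries in another sequencing run, so run and PO cannot be told apart. All 15 embryonic stem cell markers, Pou5f1, Nanog and Sox2 among them, passed the low-count filter, and their summed level was 3257 to 4411 counts per 1000000 (CPM) in 2i+LIF HP against 4800 to 7680 CPM in the other libraries. The sum over 9 feeder fibroblast markers was 4.79 to 38.01 CPM per library, and 2 of the 9 passed the low-count filter. Over all libraries Dcn, Postn and Col3a1 had 2 or fewer counts, Col6a1 had 5 and Pdgfrb had 19. Dusp6, a target of ERK signalling that MEK inhibition lowers, was at 0.411 ± 0.711 CPM (SD, n = 3) in the LIF HP libraries, although no MEK inhibitor is part of that label, and at 27.6 ± 17.1 CPM in those labelled LIF LP. In 2i+LIF LP it ran from 0.701 CPM in replicate 1 to 34.4 CPM. Sp5, a Wnt target that GSK3 inhibition raises, was at 0.605 to 1.52 CPM in the CH+LIF LP libraries, whose label holds the GSK3 inhibitor, and at 19.6 to 30.2 CPM in those of LIF HP, whose label does not. Axin2, also a Wnt target, was less clear. It was at 0 to 10.6 CPM in CH+LIF LP, 0 to 1.33 CPM in LIF LP and 6.18 to 12.4 CPM in LIF HP. The medium names below are therefore those of the labels.

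Suz12 was the PRC2 gene that varied most between groups. Its highest group mean, in 2i+LIF HP, was 4.22 times its lowest, in LIF HP. For the other members this ratio was 2.23 (Jarid2), 2.22 (Eed), 2.04 (Ezh2), 1.95 (Ezh1), 1.74 (Rbbp7), 1.58 (Mtf2) and 1.58 (Rbbp4). In a joint test over all 7 groups (edgeR quasi-likelihood F test with Benjamini-Hochberg adjustment, threshold 0.05), Suz12 was called with an adjusted p of 0.00205. It was the only member called there, 1 of 8, while 22.6% of all tested genes were called. Without 2i+LIF PO replicate 1, 1 of the libraries that stood apart, Ezh2, Eed and Jarid2 were called by edgeR as well. Among the 6 groups other than PO, 1 of 8 members (Suz12, adjusted p = 0.00221) and 13.1% of all tested genes were called by edgeR. Jarid2 came nearest to the threshold among the rest, with adjusted p-values of 0.0546 over 7 groups and 0.061 over 6. The adjusted p of Suz12 stayed under 0.05 in all 28 alternative settings for each of these tests, from 2.26e-07 to 0.0105 over 7 groups.

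**Figure D1:**
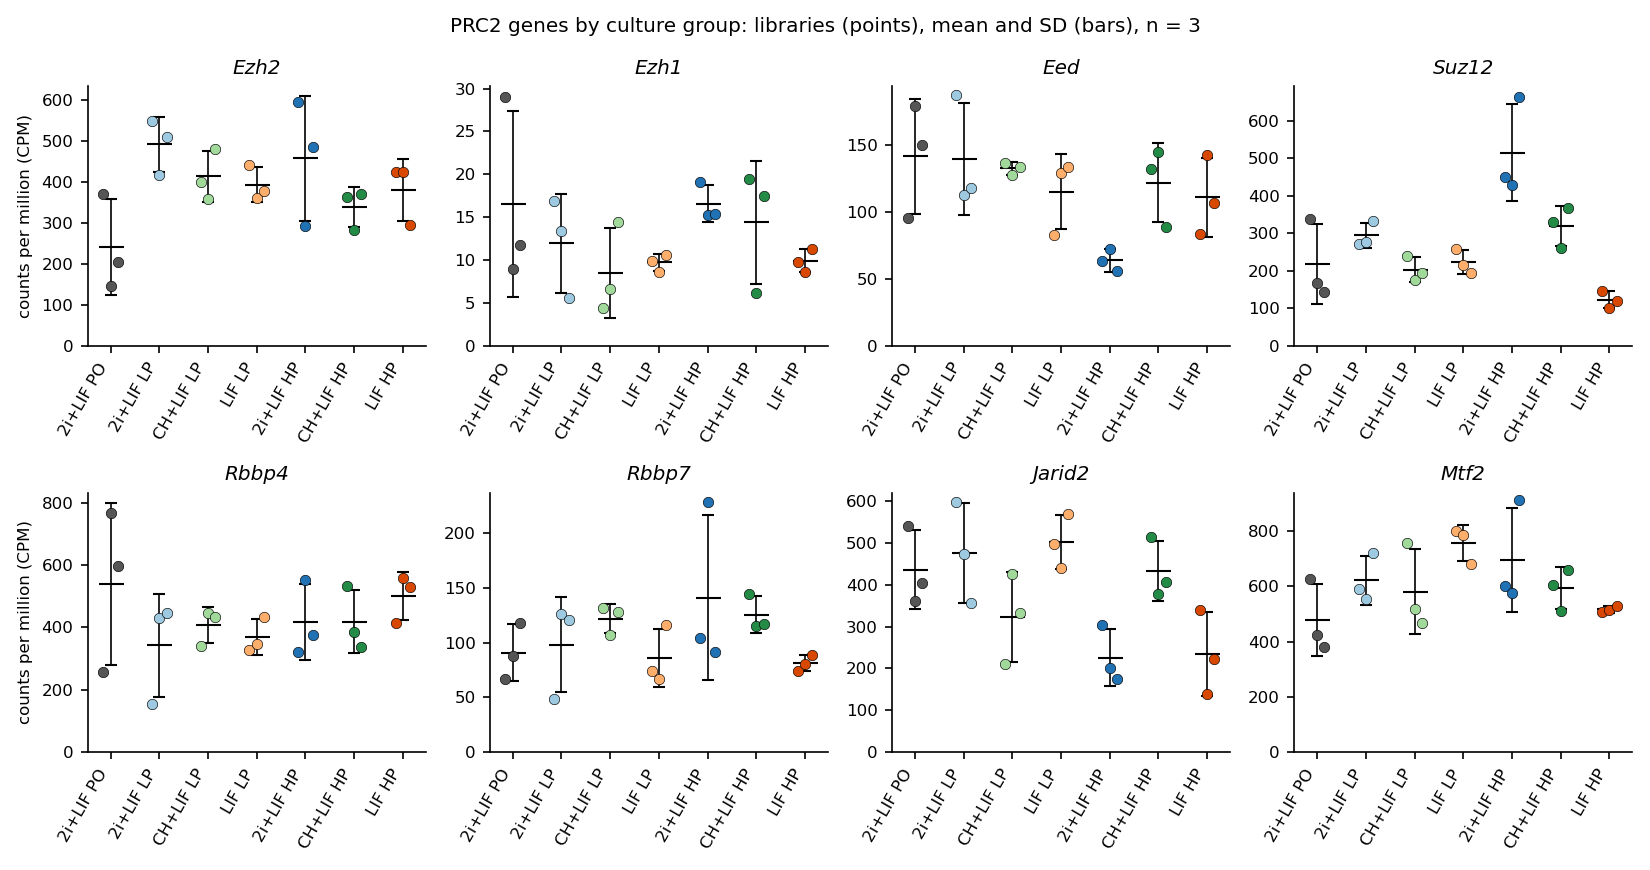
Level of each PRC2 gene in CPM (vertical axes, starting at 0) in the 7 culture groups, with a point per library and bars for the mean and SD of 3. Suz12 is highest in the 3 libraries of 2i+LIF HP and lowest by mean in LIF HP, where 1 library lies just above the lowest of 2i+LIF PO, Eed is lowest in 2i+LIF HP, and Jarid2 is low in both 2i+LIF HP and LIF HP.

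Set against transcript length, Mtf2 was the most abundant member, with a mean of 106 CPM per kb of merged exon length over the 21 libraries. Ezh2 (58.1), Suz12 (54.7), Rbbp4 (48.9), Jarid2 (38.7), Rbbp7 (36.5) and Eed (30.7 CPM per kb) followed. Ezh1 stood far below at 1.68 CPM per kb. The order pools all groups and changed between them. In 2i+LIF HP Suz12 (104 CPM per kb) was above Ezh2 (68.5). In LIF HP Suz12 (24.7) was below Eed (28.9) and Rbbp7 (27.8 CPM per kb). Any such order holds only if reads cover whole transcripts, which the sources used here do not state.

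Promoters of Suz12 and Eed are shown because these were the members called against 2i+LIF PO, in opposite directions. The sequences are the 250 bases before the RefSeq start in GRCm38.p6, 5′ to 3′ on the gene's strand: chr11:79992856-79993105 on the plus strand for Suz12 and chr7:89980977-89981226 on the minus strand for Eed. Capitals mark a match to an E2F motif, a family of cell cycle regulators, and to a TCF/LEF motif, bound by the factors at the end of the Wnt pathway (here CTTTGAA read on the other strand).
Suz12: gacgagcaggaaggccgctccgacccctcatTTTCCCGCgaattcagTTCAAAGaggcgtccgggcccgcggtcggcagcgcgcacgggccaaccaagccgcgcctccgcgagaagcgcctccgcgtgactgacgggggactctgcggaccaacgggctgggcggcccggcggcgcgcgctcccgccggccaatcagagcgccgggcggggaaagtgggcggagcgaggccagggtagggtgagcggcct
Eed: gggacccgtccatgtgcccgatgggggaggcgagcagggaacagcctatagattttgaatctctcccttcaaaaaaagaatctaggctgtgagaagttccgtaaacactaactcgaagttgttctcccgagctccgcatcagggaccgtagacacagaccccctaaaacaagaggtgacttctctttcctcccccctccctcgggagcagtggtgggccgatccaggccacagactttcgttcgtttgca

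The Suz12 promoter held 37 CpG and 73.6% G+C, that of Eed 12 CpG and 54.4% G+C, and the median of all 32851 promoters of that length was 6 CpG. The E2F search (TTTCGCGC, TTTGGCGC or TTTCCCGC, both strands) matched at -219 in Suz12 and in 1.53% of all promoters, and the TCF/LEF search (CTTTGAT or CTTTGAA, both strands) matched at -203 in Suz12 and in 7.48% of all promoters. The matches did not overlap each other. Suz12 also held 3 matches to the SP/KLF motif GGGCGG (32.7% of all promoters hold one) and 1 to CCAAT (33.8%). None of the 8 motif families searched, which also included NRF1, ETS (CCGGAAGT), STAT (TTCNNNGAA) and TATAAA, matched in the Eed window. Among the 10 promoters that RefSeq gives for the 8 members, that of Suz12 alone held an E2F or TCF/LEF match. These are matches of letters, not binding sites.

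Ezh2 (ENSMUSG00000029687, chromosome 6, 47530139 to 47595341 in GRCm38, minus strand), the main methyltransferase, had its lowest group mean in 2i+LIF PO. The libraries there had 371, 146.4 and 205 CPM, and replicate 1 lay within or above the range of several other groups, CH+LIF HP among them. In 2i+LIF LP the libraries had 548, 416 and 510.5 CPM, all above the PO libraries. Means ± SD (n = 3) in the other groups were 413 ± 61.9 CPM in CH+LIF LP, 393 ± 42.8 in LIF LP, 457 ± 152.5 in 2i+LIF HP, 338 ± 49.2 in CH+LIF HP and 379.9 ± 74.7 in LIF HP, and every group, PO included, overlapped its neighbours in the order of means. The difference of 2i+LIF LP from PO was 1.03 on the log2 scale (SE 0.35), with an edgeR adjusted p of 0.0824. With replicate number as a block, in the comparison where same-numbered libraries deviated together most, it was 1.09 with an edgeR adjusted p of 0.0442. It was 1.497, with an edgeR adjusted p of 0.0102, without 2i+LIF PO replicate 1, the PO library with the most Ezh2 and with the high mitochondrial share. Without both libraries that stood apart, of which 2i+LIF LP replicate 1 is the other, it was 1.39 (edgeR adjusted p = 0.0122). Several measures moved with this comparison without overlap. The mitochondrial share was 0.21 to 4.62% in 2i+LIF LP against 7.55 to 39.1% in PO, and summed embryonic stem cell markers were at 5139 to 5739 CPM against 6762 to 7680 CPM. Summed markers were at 121 to 167 CPM against 72.7 to 86.0 CPM for formative or primed epiblast, 118 to 259 CPM against 42.7 to 75.0 CPM for neural ectoderm and 73.2 to 102 CPM against 137 to 197 CPM for trophectoderm. The sum of 20 replication and proliferation genes was 3704 to 4477 CPM against 2869 to 3466 CPM. Their part in the Ezh2 values was not tested. Among the 6 groups other than PO, Ezh2 gave an edgeR adjusted p of 0.797.

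Ezh1 (ENSMUSG00000006920, chromosome 11, 101191115 to 101226463, minus strand), the less active relative of Ezh2, ranged from 4.36 to 29.0 CPM over the 21 libraries. Group means ran from 8.48 ± 5.28 CPM in CH+LIF LP to 16.6 ± 2.17 CPM in 2i+LIF HP (SD, n = 3), and every group overlapped its neighbours in that order. The ratio of Ezh1 to Ezh2 in CPM was highest in 2i+LIF PO, where it lay between 0.0571 and 0.0782 in the 3 libraries. In the other 18 libraries it was 0.0109 to 0.0537. The PO libraries thus did not overlap the others in this ratio, which was not tested.

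Suz12 (ENSMUSG00000017548, chromosome 11, 79993106 to 80034123, plus strand), the scaffold subunit, was highest in 2i+LIF and lowest in LIF at HP. The 2i+LIF HP libraries had 452, 429 and 665 CPM, the CH+LIF HP libraries 329.6, 261 and 369 CPM, and the LIF HP libraries 145.8, 101 and 119.5 CPM, from 283, 164 and 116 counts. The 3 groups did not overlap, and the LIF HP libraries lay below all other libraries except 2i+LIF PO replicate 3, which was below LIF HP replicate 1. At LP the levels were closer: 273, 277 and 333 CPM in 2i+LIF, 240.3, 175 and 193 CPM in CH+LIF, and 258, 216 and 195 CPM in LIF. The 2i+LIF LP libraries all lay above those of the other media at LP, while CH+LIF LP and LIF LP overlapped. In 2i+LIF PO the 3 libraries had 339, 169 and 142.8 CPM, with replicate 1 above the others.

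Suz12 fell by 2.08 on the log2 scale in LIF HP against 2i+LIF HP (SE 0.35, 95% interval -2.79 to -1.36, edgeR adjusted p = 0.000932), a 4.21-fold difference that ranked 29 by p-value among all tested genes. It was the 1 of 8 members called in this comparison, where 3.78% of all tested genes were called and 1.68% were called lower. The value lay between -2.26 and -1.86 in the 28 alternatives and was called in all of them. In bulk libraries, fewer cells that express a gene and less RNA per cell cannot be told apart. Against CH+LIF HP, Suz12 fell by 1.39 (SE 0.34, edgeR adjusted p = 0.0351), again as 1 of 8 members, beside 1.47% of all tested genes. Between CH+LIF HP and 2i+LIF HP the difference of -0.69 (SE 0.33) was not called (edgeR adjusted p = 0.427). The call of LIF HP against CH+LIF HP was lost when any 1 of the 6 libraries of the groups compared, or LIF LP replicate 2, was left out (log2 differences of -1.56 to -1.28, edgeR adjusted p up to 0.202). The joint test of media at HP also called 1 of 8 members, Suz12 (edgeR adjusted p = 0.00165), beside 5.12% of all tested genes.

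Several technical measures and marker lists moved with this comparison. The share of mitochondrial counts was 3.48 to 9.35% in LIF HP and 1.25 to 3.05% in 2i+LIF HP. Entries outside genes made up 8.46 to 16.7% in LIF HP and 17.2 to 21.5% in 2i+LIF HP, and alignments that were not unique 30.3 to 35.4% and 22.5 to 30.4%, the last with a slight overlap. Summed embryonic stem cell markers were at 4800 to 5191 CPM in LIF HP against 3257 to 4411 CPM in 2i+LIF HP. Summed markers of formative or primed epiblast were lower in LIF HP, at 51.7 to 73.2 CPM against 109.3 to 164.1 CPM, and so were those of 2-cell-like cells, at 1.03 to 4.31 CPM against 11.5 to 15.3 CPM. Against CH+LIF HP, too, LIF HP had more alignments that were not unique (25.6 to 28.3% in CH+LIF HP), fewer entries outside genes (16.7 to 22.9%) and a lower sum of formative or primed markers (108.8 to 114.2 CPM). Summed trophectoderm markers were at 136 to 186.5 CPM in LIF HP and 47.7 to 67.8 CPM in CH+LIF HP, summed neural ectoderm markers at 93.6 to 145.8 CPM and 61.0 to 63.5 CPM, and the sum of 20 replication and proliferation genes at 2383 to 2733 CPM and 3846 to 4425 CPM. None of these ranges overlapped between LIF HP and CH+LIF HP, and the part of these measures in either Suz12 result was not tested. Gm26563, which lies on the opposite strand across Suz12, had 8 counts over all 21 libraries.

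In 2i+LIF HP against 2i+LIF PO, 2 of 8 members were called, 1 higher and 1 lower, while 10.6% of all tested genes were called, 5.8% higher and 4.79% lower. The higher member was Suz12, which rose by 1.25 (SE 0.34, edgeR adjusted p = 0.0184). This call was lost without 2i+LIF PO replicate 2 (log2 difference 1.11, edgeR adjusted p = 0.0733), without 2i+LIF PO replicate 3 (1.06, adjusted p = 0.085) and without 2i+LIF HP replicate 3 (1.03, adjusted p = 0.122). It was also lost when only the groups compared were fitted (1.26, adjusted p = 0.184). Without 2i+LIF PO replicate 1 it was 1.73. DESeq2 called Ezh2 and Jarid2 in this comparison too. Ezh2 was called in 3 of 28 alternatives and Jarid2 in 1. Embryonic stem cell markers moved with this comparison: 8 of 15 were called lower in 2i+LIF HP and 1 higher, with a median of -1.34. The mitochondrial share was 1.25 to 3.05% in 2i+LIF HP against 7.55 to 39.1% in PO, summed formative or primed markers 109.3 to 164.1 CPM against 72.7 to 86.0 CPM, and summed markers of 2-cell-like cells 11.5 to 15.3 CPM against at most 2.11 CPM. The sum of 20 replication and proliferation genes was 3501 to 3997 CPM against 2869 to 3466 CPM, also without overlap. The part of these measures in the Suz12 and Eed results was not tested. Between HP and LP, Suz12 was not called in any medium: the log2 differences were 0.81 in 2i+LIF (edgeR adjusted p = 0.205), 0.66 in CH+LIF (0.965) and -0.87 in LIF (0.0981). The difference between the LIF and 2i+LIF values was -1.67 (SE 0.48, edgeR adjusted p = 0.145) and that between LIF and CH+LIF -1.52 (SE 0.48, adjusted p = 0.194), so a dependence of the HP to LP difference on the medium did not pass the threshold.

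**Figure D2:**
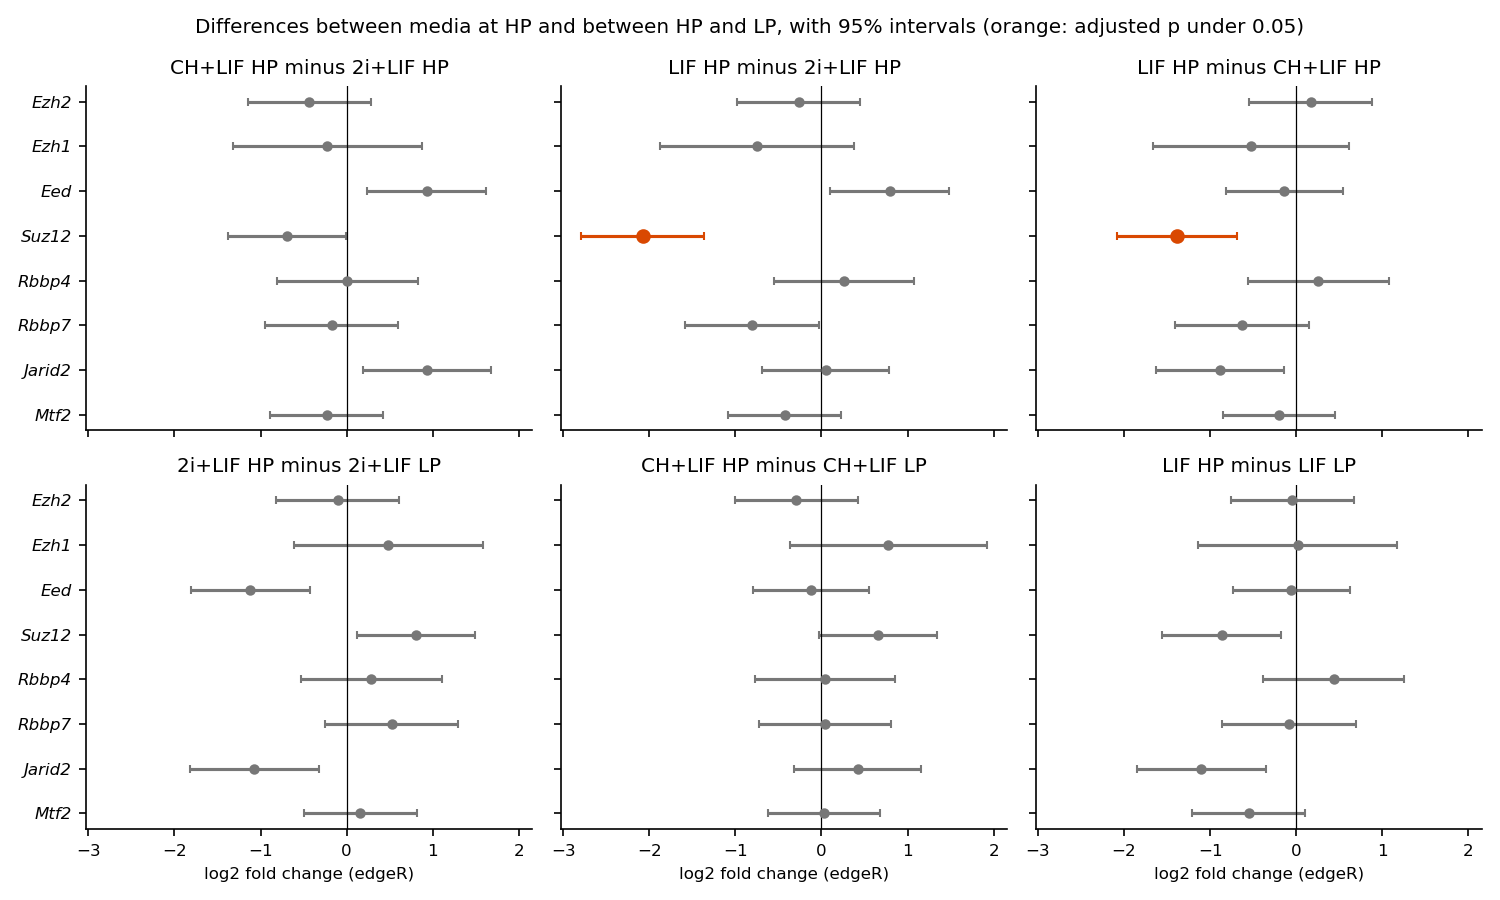
Log2 fold change (horizontal axes) of the 8 PRC2 genes between media at HP (top) and between HP and LP in each medium (bottom), with 95% intervals from edgeR and called values in orange. Suz12 is called at -2.08 and -1.39 in the comparisons of LIF HP with 2i+LIF HP and with CH+LIF HP, and no other value is called.

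Eed (ENSMUSG00000030619, chromosome 7, 89954654 to 89980983, minus strand), the subunit that reads the H3K27 mark, was low in 1 group. The 2i+LIF HP libraries had 63.2, 72.5 and 55.6 CPM, below all 18 other libraries. Those of 2i+LIF PO had 94.96, 179 and 149.6 CPM, those of 2i+LIF LP 187, 113 and 117 CPM, and those of CH+LIF HP 132, 144.5 and 88.3 CPM. The LIF HP libraries, the next lowest by mean at 111 ± 29.7 CPM (SD, n = 3), began at 83.5 CPM, and LIF LP began at 82.6 CPM. Eed fell by 1.15 in 2i+LIF HP against 2i+LIF PO (SE 0.33, edgeR adjusted p = 0.0282), a 2.21-fold difference. The call was lost without any 1 of the 3 libraries of 2i+LIF HP or without PO replicate 2 or 3 (log2 differences of -1.24 to -0.94, edgeR adjusted p of 0.0544 to 0.139). It was also lost without the low-count filter (edgeR adjusted p = 0.0516) and with only the groups compared (0.156). Against 2i+LIF LP the difference was -1.12 (SE 0.34, edgeR adjusted p = 0.0598), against CH+LIF HP the value of CH+LIF HP was higher by 0.93 (adjusted p = 0.198), and against LIF HP that of LIF HP was higher by 0.79 (adjusted p = 0.187).

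Rbbp4 (ENSMUSG00000057236, chromosome 4, 129307100 to 129335370, minus strand) and Rbbp7 (ENSMUSG00000031353, chromosome X, 162760402 to 162779092, plus strand) encode related histone chaperones that also serve in other chromatin complexes. Rbbp4 ranged from 152.9 CPM in 2i+LIF LP replicate 1 to 768 CPM in 2i+LIF PO replicate 2, and Rbbp7 from 48.4 CPM in 2i+LIF LP replicate 1 to 228 CPM in 2i+LIF HP replicate 2. Group means of Rbbp4 were 342 to 540 CPM, Rbbp7 was lowest by mean in LIF HP at 81.0 ± 7.24 CPM (SD, n = 3), and all neighbouring groups in the order of means overlapped. The ratio of Rbbp7 to Rbbp4 was 0.144 to 0.179 in LIF HP, below the 0.242 to 0.411 of 2i+LIF HP and the 0.271 to 0.345 of CH+LIF HP. The 2i+LIF PO libraries, at 0.26, 0.115 and 0.197, reached below those of LIF HP. The log2 difference of Rbbp7 in LIF HP from 2i+LIF HP was -0.81 (SE 0.38, edgeR adjusted p = 0.238), and the libraries of these groups did not overlap. Neither gene was called in any of the 22 tests. Txlng, which overlaps Rbbp7 on the opposite strand, had 6.71 to 39.2 CPM per library.

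Jarid2 (ENSMUSG00000038518, chromosome 13, 44729474 to 44921643, plus strand), which binds nucleosomes and stimulates PRC2, was low in both 2i+LIF and LIF at HP. The libraries had 303, 200.1 and 174 CPM in 2i+LIF HP and 340.1, 139.8 and 221.5 CPM in LIF HP. In CH+LIF HP they had 513, 378 and 407 CPM. The CH+LIF HP libraries lay above all 6 libraries of the other media at HP, and the 2i+LIF HP and LIF HP libraries overlapped. At LP the values were 597.5, 474 and 357 CPM in 2i+LIF, 210.3, 426 and 333 CPM in CH+LIF, and 497, 441 and 569 CPM in LIF, so HP and LP did not overlap in 2i+LIF or in LIF. No Jarid2 difference passed the threshold in the reported edgeR fit. That between LIF HP and LIF LP was -1.10 (SE 0.36, edgeR adjusted p = 0.0522, called in 11 of 28 alternatives). That between 2i+LIF HP and 2i+LIF LP was -1.07 (SE 0.36, edgeR adjusted p = 0.104). DESeq2 called both of these differences, and that between 2i+LIF HP and PO. In CH+LIF the HP value was higher by 0.42 (edgeR adjusted p of 1). The difference of LIF from CH+LIF in this respect was -1.53 (SE 0.51, edgeR adjusted p = 0.225) and that of CH+LIF from 2i+LIF 1.495 (SE 0.51, adjusted p = 0.512).

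Mtf2 (ENSMUSG00000029267, chromosome 5, 108065674 to 108109004, plus strand), which binds unmethylated CpG DNA, had group means from 477 ± 131 CPM in 2i+LIF PO to 755 ± 64.8 CPM in LIF LP (SD, n = 3). The LIF HP libraries were the closest to each other of any group, at 505.5, 512 and 529.6 CPM, and all lay below those of LIF LP (799.8, 784 and 680.5 CPM). The difference was -0.55 (SE 0.32, edgeR adjusted p = 0.283). Tmed5, on the opposite strand across Mtf2, had 9.22 to 42.4 CPM per library.

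Outside the comparisons in which Suz12 or Eed was called, edgeR called 0 of 8 members. At HP, CH+LIF against 2i+LIF called 2.02% of all tested genes. An unadjusted p under 0.05 was found for 3 members (Eed, Suz12 and Jarid2) and for 11.6% of all tested genes. Among media at LP, the comparisons called 0, 0.489 and 0.047% of all tested genes (CH+LIF against 2i+LIF, LIF against 2i+LIF, LIF against CH+LIF), the joint test called 0.376%, and no member had an unadjusted p under 0.05, beside 8.93, 11.9, 4.71 and 10.3% of all tested genes. Between HP and LP, 3.67% of all tested genes were called in 2i+LIF, 0.0094% in CH+LIF and 9.96% in LIF, with 3, 0 and 2 members at an unadjusted p under 0.05, beside 17, 5.37 and 26.3%. Against PO the shares were 5.06% in 2i+LIF LP, 8.31% in CH+LIF LP, 12% in LIF LP, 5.82% in CH+LIF HP and 12.3% in LIF HP, with 1, 1, 1, 0 and 2 such members, beside 22.1, 24, 27.5, 22.6 and 28.7%. The interactions of medium with HP against LP called 0.0188, 0.15 and 0.423% of all tested genes, with 2 such members in each, beside 6.49, 11 and 11.7%. DESeq2, run as an alternative, called 2 members (Eed and Jarid2) in 2i+LIF HP against 2i+LIF LP 1 (Jarid2) in LIF HP against LIF LP, 1 (Ezh2) in 2i+LIF LP against PO, 1 (Suz12) in the interaction of LIF against 2i+LIF, and 0 in the others of these comparisons.

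Counted by separation alone, 5 of 8 members did not overlap between LIF HP and 2i+LIF HP. Of these Eed was higher in LIF HP, where 14.6% of all tested genes were higher without overlap, and Ezh1, Suz12, Rbbp7 and Mtf2 were lower, beside 13.5% of all tested genes. The median log2 difference of the 8 members in this comparison was -0.35, and that of all tested genes -0.02. In LIF HP against CH+LIF HP, 3 members (Suz12, Rbbp7 and Jarid2) were lower without overlap, beside 14.6% of all tested genes, and the member median was -0.36 against 0.01. In 2i+LIF HP against 2i+LIF LP, Suz12 was higher and Eed and Jarid2 lower without overlap, beside 8.43% and 8.41% of all tested genes. Between CH+LIF HP and 2i+LIF HP, Eed and Jarid2 were higher and Suz12 lower in CH+LIF without overlap, beside 10.3% and 9.45%, and in LIF HP against LIF LP, Suz12, Jarid2 and Mtf2 were lower without overlap, beside 19.3%.

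Pearson r between members ranged from -0.64 (Ezh2 and Rbbp4) to 0.60 (Suz12 and Mtf2). Over the 21 libraries, which share a cell line and differ in depth and in mitochondrial share, log2 CPM of Suz12 and Eed had a Pearson r of -0.60 (Spearman rho -0.55). The r was -0.45 without 2i+LIF HP replicate 3 and LIF HP replicate 2, the libraries farthest from the Suz12 median, -0.57 over the 7 group means and -0.74 over deviations from the group means. Suz12 and Mtf2 had an r of 0.60 (rho 0.58) over the libraries, 0.48 without the same 2 libraries, 0.54 over the group means and 0.86 over deviations within groups. Ezh2 and Mtf2 had an r of 0.56, Suz12 and Ezh2 of 0.38 (0.61 within groups), and Suz12 and Jarid2 of 0.06. For Rbbp4 and Rbbp7 it was 0.54 over the libraries, 0.78 within groups and -0.083 over the group means. Without the PO libraries the r of Suz12 was -0.54 with Eed, 0.54 with Mtf2 and 0.26 with Ezh2. That of Rbbp4 and Rbbp7 was then 0.61. The values within groups include both libraries that stood apart, whose part in them was not tested. All these r are descriptions without a test, and genes are not independent replicates.

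**Figure D3:**
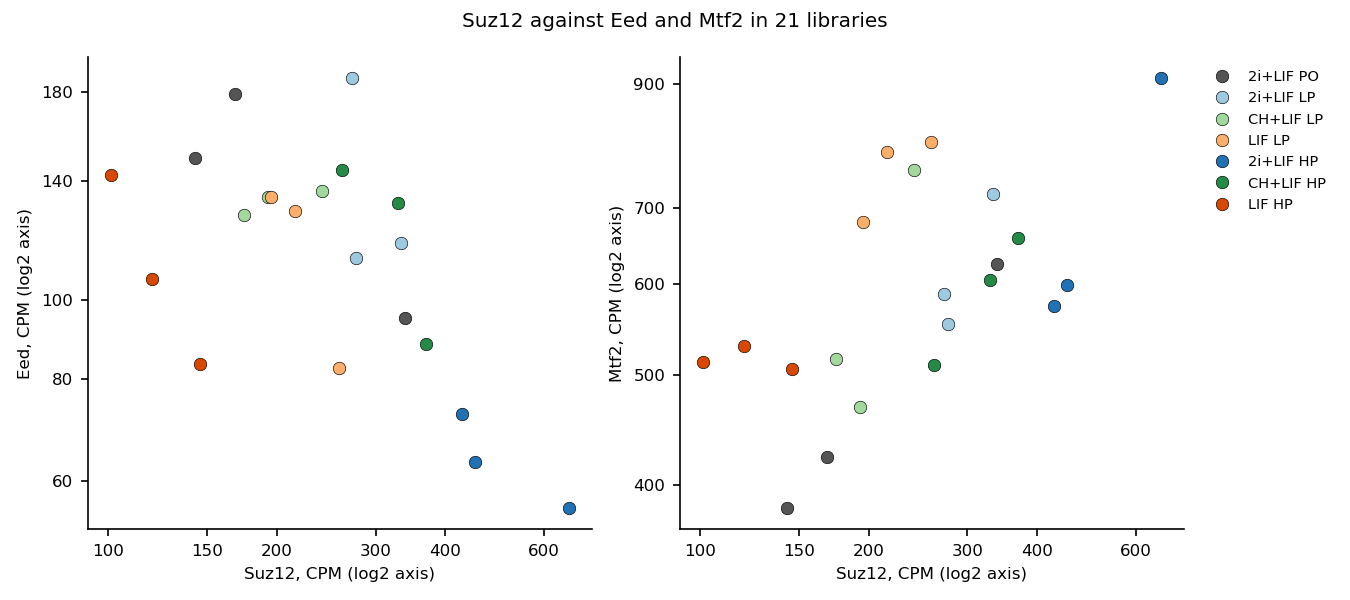
Level of Eed (left) and Mtf2 (right) against Suz12, in CPM on log2 axes, with a point per library coloured by group. The 2i+LIF HP libraries sit at the high-Suz12, low-Eed corner, and r over the 21 libraries is -0.60 for Eed and 0.60 for Mtf2.

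The tested genes of at least 10 CPM whose log2 CPM followed a member most closely over the 21 libraries differed from member to member. For Suz12 they were Auts2 (r = 0.853), Hjurp (0.836) and Ercc6l (0.817), and for Jarid2 Kdm2b (0.859), Glg1 (0.844) and Lamc1 (0.843). Auts2, a subunit of a PRC1 variant, had 39.7, 14.8 and 43.3 CPM in LIF HP but 133, 131 and 160.1 CPM in 2i+LIF HP, groups that did not overlap. Since these genes were picked for following Suz12 in the same libraries, their separation between these groups is a description only. Hjurp, the chaperone of the centromeric histone, had 43.7 ± 11.3 CPM in LIF HP against 104 ± 11.3 CPM in 2i+LIF HP (SD, n = 3). For Ezh2 the closest were Anapc5 (0.854), Ddx24 (0.819) and Pum3 (0.806), and for Ezh1 Tsc22d4 (0.881), Gtf2f1 (0.842) and Snrpa (0.81). Eed was followed by Tpi1 (0.847), Nras (0.814) and Eid1 (0.797), and Rbbp4 by Uchl3 (0.935), Ndufb5 (0.926) and Rpl23 (0.915). Rbbp7 was followed by Ythdf2 (0.824), Pus10 (0.80) and Cdt1 (0.80), and Mtf2 by Pdpk1 (0.906), Dmxl1 (0.90) and Zmym5 (0.857). The candidates were 7752 genes, and the values of each library share its depth and culture group.

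Of 7 other accessory subunits of PRC2 listed, 6 were found and 5 tested, Aebp2, Phf1, Epop, Lcor and Lcorl, and 0 were called in the comparisons of LIF HP with 2i+LIF HP or CH+LIF HP and of 2i+LIF HP with PO, where 3.78, 1.47 and 10.6% of all tested genes were. Aebp2, which helps PRC2 bind nucleosomes, was the 1 of 5 called in the joint test over 7 groups (edgeR adjusted p = 0.0415), beside 22.6% of all tested genes. The median log2 difference of the 5 was -0.24 in LIF HP against 2i+LIF HP, where that of all tested genes was -0.02, and -0.66 beside -0.09 in 2i+LIF HP against PO. Against PO, 2 of 5 fell in CH+LIF HP (Aebp2 and Epop, list median -1.18, beside 5.82% of all tested genes called) and 1 of 5 in LIF HP (Lcor, list median -0.83, beside 12.3%), comparisons that share the PO libraries. PRC1, the partner complex that places ubiquitin on histone H2A, had 25 of 26 listed subunits tested. In LIF HP against 2i+LIF HP 1 of 25 was called, beside 3.78% of all tested genes: Auts2, which fell by 2.13 (SE 0.43, edgeR adjusted p = 0.00464), and the list median was -0.36. In 2i+LIF HP against PO, where 10.6% of all tested genes were called, 2 PRC1 subunits rose, Yaf2 by 2.32 and Auts2 by 1.65, and 2 fell, the chromodomain gene Cbx7 by 1.62 and Phc1 by 1.21 on the log2 scale, with edgeR adjusted p-values of 0.00138 to 0.0454 and a list median of -0.25 against -0.09 for all tested genes. Phc1 was called in 11 of 28 alternatives, with values from -1.97 without 2i+LIF HP replicate 1 to -0.85 without 2i+LIF HP replicate 2. The calls of Cbx7 and Auts2 were also lost without 2i+LIF HP replicate 3 (-1.30 and 1.55), that of Cbx7 without 2i+LIF HP replicate 2 (-1.52) or 2i+LIF PO replicate 2 (-1.27), and that of Auts2 without 2i+LIF PO replicate 3 (1.37).

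A list of 16 trithorax-type genes, H3K27 demethylases and related chromatin genes, many of which oppose PRC2, had 0 called in LIF HP against 2i+LIF HP and against CH+LIF HP, where 3.78 and 1.47% of all tested genes were, with medians of -0.52 and -0.35 beside -0.02 and 0.01 for all tested genes. In 2i+LIF HP against PO 3 of 16 fell, beside the 4.79% of all tested genes called lower there: Wdr5, a core subunit of the trithorax-type complexes, went from 366 ± 32.1 to 95.4 ± 43.9 CPM (SD, n = 3), Rbbp5 from 69.7 ± 15.3 to 27.2 ± 10.3 CPM, and Kmt2b from 34.6 ± 12.5 to 9.98 ± 5.27 CPM. The list median there was -0.72. Wdr5 was called in all 28 alternatives. The calls of Rbbp5 and Kmt2b were lost without 2i+LIF PO replicate 2 (-1.15 and -1.42) and without 2i+LIF HP replicate 3 (-1.08 and -1.45), and that of Kmt2b without 2i+LIF HP replicate 2 (-1.70). Of 21 genes of other complexes that hold Rbbp4 or Rbbp7, 2 were called in that comparison, beside 10.6% of all tested genes: the histone chaperone subunit Chaf1b rose by 1.33 and the deacetylase Hdac1 fell by 1.37 on the log2 scale (edgeR adjusted p of 0.0227 and 0.0287). Both calls were lost without 2i+LIF PO replicate 1 (1.01 and -0.91) and without 2i+LIF HP replicate 3 (1.04 and -1.06), that of Chaf1b also without 2i+LIF PO replicate 2 (1.39) and that of Hdac1 without 2i+LIF HP replicate 1 (-1.33).

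Developmental genes known as PRC2 targets in embryonic stem cells were mostly near 0: of 42 listed, 13 passed the filter, and 0 counts in all libraries were found for Neurog1. In 2i+LIF HP against PO 6 of these 13 rose and 1 fell, beside 5.8% and 4.79% of all tested genes, with a list median of 2.01, also with the genes at 0 in a group set to their bound of 3 counts. Genes read mainly in 1 group pass such a filter through that group, so these counts support no direction for the list. T, the mesoderm regulator Brachyury and a Wnt target, was without counts in PO and at 22.4 ± 12.4 CPM in 2i+LIF HP, Pax6 had 2.34 ± 1.72 CPM and no counts in PO, and Msx1 had 15.9 ± 9.51 CPM against 0.257 ± 0.262 CPM (SD, n = 3). Otx2 fell by 2.69 (edgeR adjusted p = 0.0218), a call lost without 2i+LIF PO replicate 2 (-1.85) or 2i+LIF HP replicate 1 (-2.28) or 3 (-2.67). The call of Pax6 was lost without any 1 PO library or 2i+LIF HP replicate 2 or 3 (edgeR adjusted p of 0.0578 to 0.153). In LIF HP against 2i+LIF HP, where Suz12 fell, 1 of the 13 was called, beside 3.78% of all tested genes: T, which was lower at 1.44 ± 0.546 CPM (edgeR adjusted p = 0.0411, called in 17 of 28 alternatives and lost without any 1 of the 6 libraries compared, among others), and the list median was -0.42. Against CH+LIF HP 2 of the 13 were called, beside 1.47% of all tested genes: Sox11 fell by 3.60 and Otx2 by 3.86, and the list median was 0.55. Sox11 lost its call without any 1 CH+LIF HP library or LIF HP replicate 2 or 3 (-3.75 to -3.22, edgeR adjusted p up to 0.144). Otx2 lost it without CH+LIF HP replicate 1 (-3.50) or LIF HP replicate 1 (-3.20) or 3 (-3.49), and all 6 of its counts in LIF HP came from replicate 2, so no fold is given without that library. Sp5 was at 361.5 ± 197 CPM in 2i+LIF HP, 32.5 ± 14.6 in CH+LIF HP, 24.5 ± 5.34 in LIF HP and 15.3 ± 15.3 in PO (SD, n = 3). Its part in the level of these genes was not tested.

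Of 20 DNA replication and proliferation genes, 1 was called in each of these comparisons, beside 3.78% of all tested genes in LIF HP against 2i+LIF HP, 1.47% against CH+LIF HP and 10.6% in 2i+LIF HP against PO. Mki67, a marker of cycling cells, had 61.1 ± 24.2 CPM in LIF HP, 191 ± 22.8 in CH+LIF HP and 178 ± 51.3 in 2i+LIF HP (SD, n = 3), with edgeR adjusted p-values of 0.0186 against CH+LIF HP and 0.0166 against 2i+LIF HP. The call against CH+LIF HP was lost without CH+LIF HP replicate 1 or 3 or LIF HP replicate 2 or 3 (-1.80 to -1.36), and that against 2i+LIF HP without 2i+LIF HP replicate 1 (-1.32) or LIF HP replicate 2 (-1.27). The summed level of the 20 genes was 2383 to 2733 CPM in LIF HP but 3501 to 3997 CPM in 2i+LIF HP, without overlap. Its part in the Suz12 difference was not tested. In 2i+LIF HP against PO, Ccne2 rose by 1.92 (edgeR adjusted p = 0.0276). It was at 3.33 without 2i+LIF PO replicate 1, and its call was lost without 2i+LIF PO replicate 2 (1.53) or 3 (1.56) and without 2i+LIF HP replicate 3 (1.09, edgeR adjusted p = 0.308). With only the groups compared in the fit, the calls of Auts2, Cbx7, Phc1, Rbbp5, Kmt2b, Chaf1b, Hdac1 and Ccne2 against PO were lost.

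**Figure D4:**
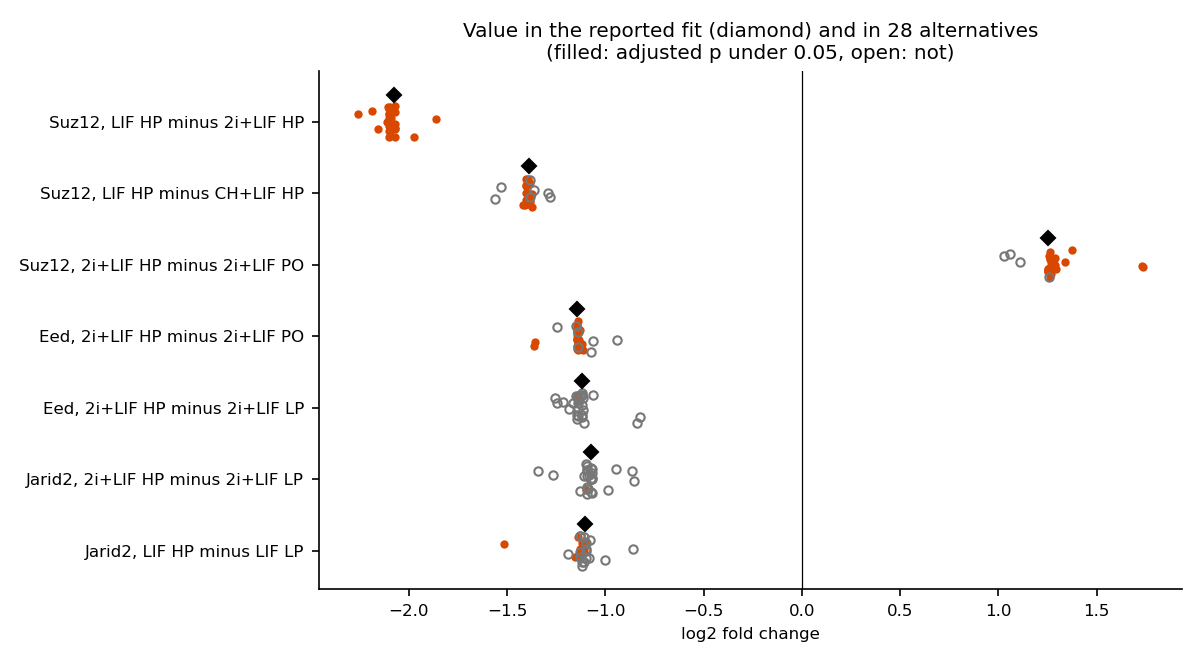
Log2 fold change (horizontal axis) of 7 differences of Suz12, Eed and Jarid2 as reported (diamond) and in 28 alternative settings each, filled where the adjusted p was under 0.05 and open where it was not. Suz12 in LIF HP against 2i+LIF HP is filled throughout, between -2.26 and -1.86, and every value keeps the sign of its diamond.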

How the data were processed

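The authors deposited 1 table of raw, unnormalized counts per Ensembl gene ID for each of 21 libraries. The submitters' processing notes name bcl2fastq, STAR 2.6.0a, HTSeq and the build mm10; annotation, strand setting and filters are not given in the sources used here. The 5 closing entries of each table, which name no gene, were left out; gene counts made up 47.4 to 62.0% of all entries. Symbols and positions came from GENCODE M21 (GRCm38), in which 31011 of 31053 IDs were found.

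The deposited counts were tested with edgeR 4.0.16 (R 4.3.3): TMM scaling, the filterByExpr filter, 1 quasi-likelihood fit of all libraries with 14 residual degrees of freedom, two-sided tests and Benjamini-Hochberg adjustment over 10643 genes within each of 22 tests (15 pairs of groups, 4 joint tests, 3 interactions). CPM are counts per 1000000 of TMM-scaled library size. Correlations used log2 CPM with a prior count of 2, with an exception for some values of member pairs. Their Spearman rho and their r without some libraries, over group means and within groups had a small constant added to the CPM instead.

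Alternatives were DESeq2 1.42.0, its size factors in edgeR, no low-count filter, a fit of the compared groups alone, a replicate block, omission of each library or of both that stood apart, and removal of mitochondrial genes and Gm42418. Same-numbered libraries deviated together most in 2i+LIF LP against 2i+LIF PO, where deviations from the group means had an r of 0.397, 0.345 and 0.179. The r were also all positive in LIF HP against 2i+LIF HP (0.327, 0.249 and 0.0501). The same held against PO in LIF LP (0.263, 0.0351 and 0.1275) and CH+LIF LP (0.119, 0.0114 and 0.0524). Named genes were all members, list genes called where a member was called (if over 6, the 3 largest rises and 3 largest falls), and the 3 genes most like each member. Also named were the tested accessory subunits, genes that overlap a member, and some genes that check labels, cell types or low counts. The members and lists were chosen with earlier results of these data known. The steps were tested on simulated data.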

Additional observations from a re-analysis of the deposited data

How the results depend on the processing

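Over 28 alternatives, no result followed reversed direction. The results followed were those of members with an unadjusted p under 0.05 and of list genes called where a member was called. Most alternatives left out 1 library, so a kept sign was likely beforehand. The call of Suz12 in LIF HP against 2i+LIF HP held in each alternative. So did its calls in the joint tests over 7 groups, 6 groups and media at HP. DESeq2 size factors moved the median log2 difference of all genes by at most 0.041, and removal of mitochondrial genes and Gm42418 by at most 0.0481. The number of the 8 members called moved as follows, and beyond the fewer libraries of some settings the cause was not tested. With DESeq2 it was 2 in place of 0 in 2i+LIF HP against 2i+LIF LP, 1 in place of 0 in LIF HP against LIF LP, in 2i+LIF LP against PO and in the interaction of LIF against 2i+LIF, 4 in place of 2 in 2i+LIF HP against PO, and 2 in place of 1 among the 7 and among the 6 groups. Without the low-count filter it was 1 in place of 2 in 2i+LIF HP against PO. With only the groups compared it was 2 in place of 1 in LIF HP against CH+LIF HP and among the 6 groups, 2 in place of 0 in LIF HP against LIF LP and in the interaction of LIF against CH+LIF, and 0 in place of 2 in 2i+LIF HP against PO. With the replicate block it was 1 in place of 0 in LIF HP against LIF LP (Jarid2) and in 2i+LIF LP against PO (Ezh2). Among the 7 and the 6 groups it was 2 in place of 1 with that block. Same-numbered libraries deviated together less, or not at all, outside 2i+LIF LP against PO.

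Without both libraries that stood apart it was 1 in place of 0 between CH+LIF HP and 2i+LIF HP, in the interaction of LIF against 2i+LIF and against PO in 2i+LIF LP, CH+LIF LP, CH+LIF HP and LIF HP, 3 in place of 0 in LIF LP against PO, 2 in place of 0 in LIF HP against LIF LP and in the interaction of LIF against CH+LIF, 4 in place of 1 among the 7 groups, 2 in place of 1 among the 6, and 3 in place of 1 among media at HP. With 1 library left out, the counts ran from 0 to 1 in LIF HP against CH+LIF HP, in 2i+LIF HP against 2i+LIF LP, in 2i+LIF LP, CH+LIF LP, LIF LP and LIF HP against PO and in the interaction of LIF against 2i+LIF, from 0 to 2 in LIF HP against LIF LP, from 0 to 3 in 2i+LIF HP against PO, from 1 to 4 among the 7 groups (4, Ezh2, Eed, Suz12 and Jarid2, without 2i+LIF PO replicate 1) and from 1 to 2 among the 6. At this depth and spread, pairwise log2 differences had an SE of 0.32 to 0.40 for 7 members and of 0.52 to 0.56 for Ezh1, which had as few as 9 counts in a library. Differences near 2-fold often did not pass the threshold, and a member that was not called is not shown to be unchanged.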
